A study of Mus musculus with 23 samples.

Results

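The 10 genes described here mark the neural crest and the early Schwann cell lineage: Sox10, Sox8, Foxd3, Erbb3, Ngfr, Cdh19, Fabp7, Gfra3, S100b and Gpr37l1. They are 10 of the 54347 genes of the count table, and their levels were followed in sorted cells of the mouse lower incisor. They were chosen from their measured levels in these same libraries, so their levels are given as a description and without a p-value. The cells came from the labial cervical loop, where the epithelium folds at the growing end of the incisor, of mice at postnatal day 2. Every mouse carried a Sox2-GFP reporter, in which green fluorescent protein follows the promoter of the endogenous Sox2 gene, and dissociated cells were sorted by fluorescence into a Sox2-positive and a Sox2-negative population. The Sox2-positive population is named as dental epithelial stem cells in the labels, but a sort on this reporter takes any cell in which the Sox2 promoter is active. Libraries were made by Smart-seq2, a full-length cDNA method for few cells, in batch A (6 Sox2-negative and 6 Sox2-positive libraries) and batch B (4 Sox2-negative and 7 Sox2-positive libraries). The batches are different days with different mice, so day and mice cannot be told apart, and whether the libraries of a batch came from separate mice is not given. The p-values below therefore measure the spread between libraries, which may be technical.

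Neural crest cells leave the dorsal neural tube and form, among other tissues, the dental mesenchyme and the Schwann cells of peripheral nerves. Sox10 is the transcription factor that the glial lineage keeps from the crest stage to the mature cell, and Foxd3 and Sox8 act beside it early in the crest. Schwann cell precursors travel along axons and depend on neuregulin from the axon, which they sense through the receptor Erbb3 with its partner Erbb2. Precursors and immature Schwann cells then express Ngfr, Cdh19, Fabp7 and Gfra3 in overlapping windows before myelin genes such as Mbp rise. Sox2 itself is a known gene of immature Schwann cells as well as of dental epithelium.

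Promoter sequence was available for 6 of the 10 genes, as the 250 bases before the RefSeq start of the gene in build GRCm38.p6. Shown here are Foxd3 and Gpr37l1, which had counts almost solely in batch A Sox2-positive cells, beside S100b, whose levels ran in another order. Each is written on the gene's own strand, and capitals mark the letters CCAAT or, on the opposite strand, ATTGG.
Foxd3 (chr4:99656049-99656298, plus strand): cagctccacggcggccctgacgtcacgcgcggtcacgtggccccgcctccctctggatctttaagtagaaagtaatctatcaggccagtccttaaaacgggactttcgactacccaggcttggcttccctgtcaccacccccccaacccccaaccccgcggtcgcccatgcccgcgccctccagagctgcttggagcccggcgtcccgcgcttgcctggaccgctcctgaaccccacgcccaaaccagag
Gpr37l1 (chr1:135167682-135167931, minus strand): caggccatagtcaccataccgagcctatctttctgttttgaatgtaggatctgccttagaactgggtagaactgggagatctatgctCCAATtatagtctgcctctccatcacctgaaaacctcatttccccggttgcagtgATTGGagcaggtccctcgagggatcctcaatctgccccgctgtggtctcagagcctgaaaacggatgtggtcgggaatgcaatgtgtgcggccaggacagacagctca
S100b (chr10:76253586-76253835, plus strand): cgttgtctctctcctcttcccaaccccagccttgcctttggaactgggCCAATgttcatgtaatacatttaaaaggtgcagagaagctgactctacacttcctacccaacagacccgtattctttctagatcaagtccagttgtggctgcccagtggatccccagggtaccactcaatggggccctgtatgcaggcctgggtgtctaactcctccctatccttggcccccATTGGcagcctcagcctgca
The CCAAT box was found once on each strand in Gpr37l1 (163 and 108 bases before the start) and in S100b (202 and 20 bases before it), and Foxd3 held none. It stood in 3 of the 6 promoters (Fabp7, S100b and Gpr37l1) and in 33.8% of 32851 mouse promoters of this length. The GC box GGGCGG stood in 2 of the 6 (Sox8 and Ngfr) against 32.7% of all, and TATAAA in 0 of the 6 against 12.4%. The SOX core, searched as ACAAAG or ACAATG on both strands, was in 0 of the 6 windows and in 25.2% of all promoters. A match is a run of letters and not a measured binding site, and the absence of a match says only that these letters are not in this window.

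Total counts per library ranged from 2305778 to 9541443, and 3 counts, taken as the floor of detection, corresponded to between 0.348 and 1.31 CPM. CPM, the usual unit of counts set against the library total, are here scaled by the TMM method. This floor covers counting error only. Sox2 checked the sort: in Sox2-positive libraries its level was between 2.56 and 13.1 CPM (batch A) and between 13.45 and 20.5 CPM (batch B), and it was at most 1.16 CPM in any Sox2-negative library. Summed epithelial markers (6 genes, with Epcam and Krt14 among them) in Sox2-positive libraries lay between 3602 and 3948 CPM (batch A) and between 3780 and 5782 CPM (batch B), against at most 383.9 CPM in Sox2-negative libraries. An earlier analysis of these data set the batch B libraries numbered 1 and 2 apart from the others in both populations, and results that change without them are given both ways.

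Across the 4 groups the summed level of the 10 genes had its high point in batch A Sox2-positive libraries, between 798.4 and 971.8 CPM. It was between 50.4 and 93.9 CPM in batch A Sox2-negative, between 60.6 and 102.1 CPM in batch B Sox2-negative and, in Sox2-positive libraries of batch B, between 67.0 and 100.1 CPM. The sums of the last 3 groups overlapped, and batch A Sox2-positive libraries were above all of them. These are bulk libraries, in which fewer cells of a type and less RNA per cell cannot be told apart. The plot of each gene by library shows this high point for 8 genes and the different order of Sox8 and S100b. Since these levels chose the genes, nothing is read from that number.

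**Figure D1:**
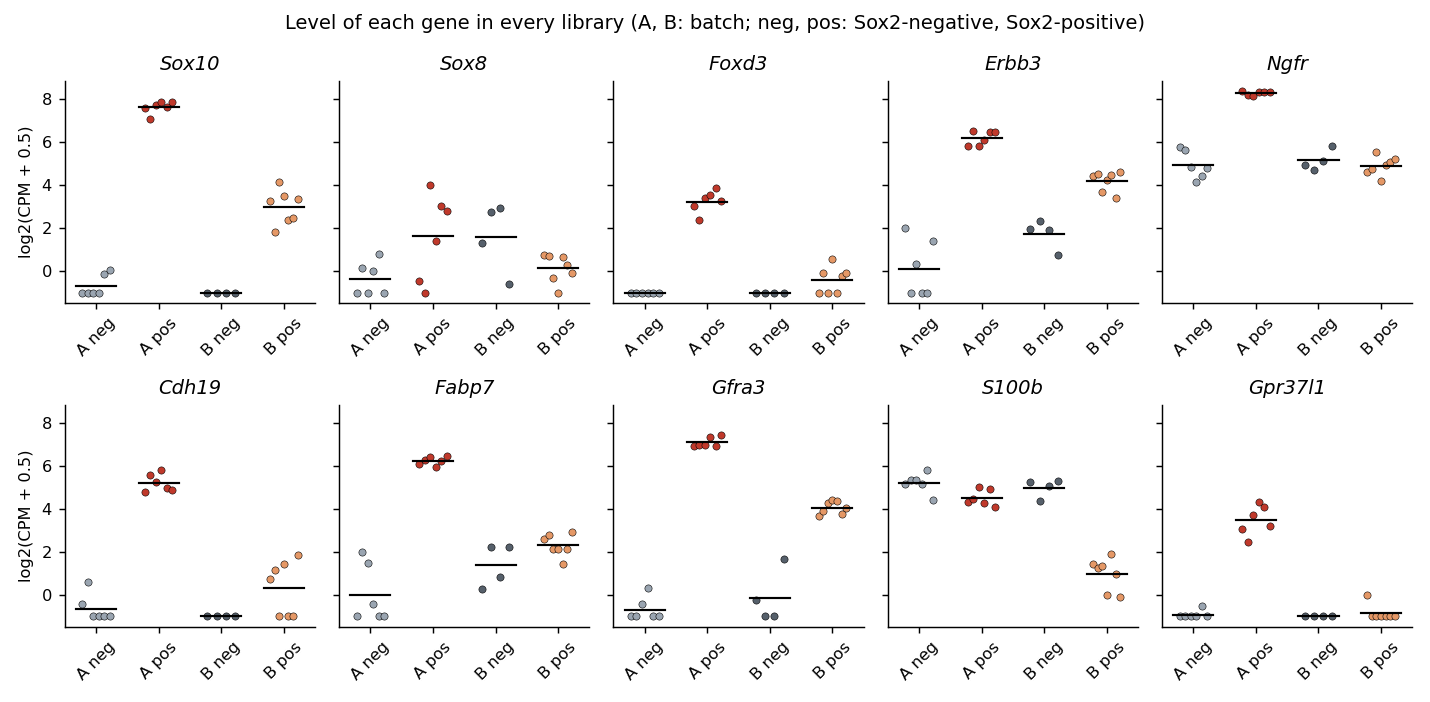
Level of each of the 10 genes in every library, as log2(CPM + 0.5), with batch A (A) and batch B (B) Sox2-negative (neg) and Sox2-positive (pos) libraries on the horizontal axis; points are libraries and bars are group means. For 8 genes every batch A Sox2-positive library lies above every other library. Sox8 overlaps between groups, and for S100b the batch B Sox2-positive libraries lie below all others while the other groups overlap. The genes were chosen from these levels, and the share of all genes with such a gap was not computed.

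Sox10 (ENSMUSG00000033006.10; chromosome 15, 79154908 to 79165240, minus strand, protein coding) separated all of the Sox2-positive from all of the Sox2-negative libraries. In batch A Sox2-positive libraries its level was 135.2 CPM at the lowest, 206.5 at the median and 230.6 at the highest, with a mean of 200.2 ± 35.3 CPM (SD, n = 6). In batch B Sox2-positive libraries it ran from 3.02 over a median of 8.98 to 17.3 CPM, with a mean of 8.49 ± 4.85 CPM (SD, n = 7). Batch A Sox2-negative libraries held 4 counts in all, in 2 of 6 libraries, and the 4 batch B Sox2-negative libraries held none. Between the populations the ratio was 1264 in batch A (95% counting interval 493.3 to 4640) and at least 16.9 in batch B. The mean of batch A Sox2-positive libraries was 23.6-fold that of batch B Sox2-positive libraries, and the groups did not overlap.

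Foxd3 (ENSMUSG00000067261.4; chromosome 4, 99656299 to 99658622, plus strand), a forkhead repressor of the early crest, had counts in Sox2-positive libraries and in none of the 10 Sox2-negative libraries. Batch A Sox2-positive libraries ranged from 4.71 over a median of 9.60 to 13.9 CPM (mean 9.40 ± 3.11, SD, n = 6), at least 11.9-fold above the Sox2-negative libraries of that batch. In batch B it had 10 counts over 7 Sox2-positive libraries, and 1 library exceeded 3 counts (0.984 CPM). Batch A was 31.4-fold above batch B among Sox2-positive libraries (95% counting interval 16.8 to 66.2). The exon of Foxd3 overlaps the annotated small RNA gene Gm23366.

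Sox8 (ENSMUSG00000024176.10; chromosome 17, 25565892 to 25570686, minus strand), the close relative of Sox10, did not share the Sox10 pattern. Its batch A Sox2-positive libraries spread from 0 over a median of 4.35 to 15.8 CPM (mean 5.41 ± 6.02, SD, n = 6), and the 4 batch B Sox2-negative libraries read 1.97, 6.21, 7.07 and 0.167 CPM. Batch A Sox2-negative libraries reached at most 1.22 CPM and batch B Sox2-positive libraries at most 1.19 CPM. The groups overlapped in every comparison, and 2 of the 6 batch A Sox2-positive libraries had no more than 0.224 CPM. Exons of Sox8 overlap those of 2810468N07Rik on the other strand, and whether the counting used strand is not given in the sources used here, so the Sox8 level is uncertain. In Sox2-positive libraries 2810468N07Rik lay between 4.93 and 15.04 CPM (batch A) and between 2.58 and 13.55 CPM (batch B).

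Of the receptors, Erbb3 (ENSMUSG00000018166.8; chromosome 10, 128567523 to 128589652, minus strand), which binds neuregulin but needs Erbb2 to signal, was above the Sox2-negative libraries in both batches. Its batch A Sox2-positive libraries ran from 55.5 over a median of 78.1 to 89.7 CPM (mean 74.5 ± 16.8, SD, n = 6). In batch B they ran from 9.94 over a median of 20.7 to 24.1 CPM (mean 18.5 ± 5.36, SD, n = 7). Sox2-negative libraries held 3.53 CPM or less in batch A, and 3.36, 4.58, 3.22 and 1.17 CPM in batch B. No library of one population overlapped with the other in either batch, with ratios of means of 69.6 (batch A) and 6.02 (batch B). The ratio of batch A to batch B Sox2-positive means was 4.02, the smallest of the 10 genes.

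Ngfr (ENSMUSG00000000120.6; chromosome 11, 95568818 to 95587735, minus strand), the low-affinity neurotrophin receptor p75, was present in every library. It was most even in batch A Sox2-positive libraries, from 283.4 over a median of 319.4 to 330.3 CPM (mean 311.8 ± 18.5, SD, n = 6). Batch A Sox2-negative libraries ran from 17.0 to 53.5 CPM (mean 32.6 ± 15.2, SD, n = 6), 9.56-fold lower. In batch B the populations overlapped, at 17.7 to 45.5 CPM in Sox2-positive libraries (mean 30.5 ± 9.14, SD, n = 7) and at 30.6, 25.4, 34.7 and 55.6 CPM in Sox2-negative libraries. Batch A Sox2-positive libraries were thus the 1 group that stood apart, 10.2-fold above those of batch B.

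Gfra3 (ENSMUSG00000024366.8), the GPI-anchored receptor that binds artemin and signals through Ret, followed Sox10 most closely among the 10 genes. Batch A Sox2-positive libraries ran from 120.1 over a median of 125 to 174.3 CPM (mean 137.8 ± 23.3, SD, n = 6), and batch B Sox2-positive libraries from 12.03 over a median of 15.8 to 20.7 CPM (mean 16.4 ± 3.45, SD, n = 7). Batch A Sox2-negative libraries held 4 counts in all, a ratio of 877 (95% counting interval 342 to 3220). Batch B Sox2-negative libraries read 0.348, 0, 0 and 2.68 CPM, a ratio of 23.1 (95% counting interval 14.7 to 38.7). Without the batch B Sox2-negative library numbered 4, which held 16 of the 19 counts, the batch B ratio was 114.7 (39.0 to 557.8), and without the batch A library numbered 4 that of batch A was 2960 (531 to 116900). Batch A exceeded batch B 8.41-fold among Sox2-positive libraries.

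Gpr37l1 (ENSMUSG00000026424.8; chromosome 1, 135160234 to 135167681, minus strand), an orphan G protein-coupled receptor of glia, had the narrowest pattern. Batch A Sox2-positive libraries ranged from 5.07 over a median of 10.8 to 19.6 CPM (mean 11.8 ± 5.58, SD, n = 6). All other libraries together held 4 counts, 1 of them in a batch A Sox2-negative library and 3 in 1 batch B Sox2-positive library. Against that batch B group the ratio was 128.7 (95% counting interval 43.7 to 627).

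The remaining members encode an adhesion molecule, a lipid carrier and a calcium-binding protein. Cdh19 (ENSMUSG00000047216.8; chromosome 1, 110888326 to 110977584, minus strand), a cadherin of Schwann cell precursors, lay between 26.9 and 54.9 CPM in batch A Sox2-positive libraries, with a median of 34.15 (mean 37.6 ± 11.2, SD, n = 6). In batch B Sox2-positive libraries it ran from 0 over a median of 1.19 to 3.07 CPM, 3 of the 7 libraries had no count, and the 4 Sox2-negative libraries had none. Batch A Sox2-negative libraries held 6 counts, 5 of them in 1 library. The batch A ratio was 156.5 (95% counting interval 71.7 to 427) and was 760 (136 to 30060) without that library. Batch A Sox2-positive libraries were 32.1-fold above those of batch B.

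Fabp7 (ENSMUSG00000019874.11; chromosome 10, 57784881 to 57788450, plus strand), the fatty acid-binding protein of radial glia and Schwann cell precursors, ran from 60.6 over a median of 75.9 to 86.1 CPM in batch A Sox2-positive libraries (mean 75.0 ± 10, SD, n = 6). Batch A Sox2-negative libraries reached at most 3.53 CPM, a ratio of means of 73.7. In batch B the populations overlapped, at 2.18 to 7.01 CPM in Sox2-positive libraries (mean 4.69 ± 1.69, SD, n = 7) and at 0.695, 4.14, 1.29 and 4.18 CPM in Sox2-negative libraries. Between the batches, Sox2-positive means differed 16.01-fold.

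S100b (ENSMUSG00000033208.7; chromosome 10, 76253853 to 76261159, plus strand), the calcium-binding protein used as a marker of Schwann cells and also made by other cell types, was the exception among the 10. Its levels in Sox2-negative libraries ran from 20.6 over a median of 37.5 to 55.7 CPM in batch A (mean 37.8 ± 11.3, SD, n = 6), and read 37.1, 20.2, 33.3 and 38.3 CPM in batch B. Batch A Sox2-positive libraries overlapped with these at 16.3 to 31.4 CPM (mean 23.04 ± 6.27, SD, n = 6). Batch B Sox2-positive libraries were the low group, from 0.438 to 3.27 CPM (mean 1.68 ± 0.997, SD, n = 7), 19.2-fold below the Sox2-negative libraries of the batch. They also lay 13.7-fold below batch A Sox2-positive libraries, a gap of the same order as that of Fabp7 and Ngfr, so S100b shared the batch pattern of the other genes within Sox2-positive cells and not the difference between the populations.

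Counted by the fit over all 17190 genes that passed the filter on low counts (edgeR quasi-likelihood test, Benjamini-Hochberg adjusted p under 0.05), 9 of the 10 genes were called higher and 0 lower in Sox2-positive cells of batch A, against 23.1% and 26.4% of all genes tested. In batch B, 5 (Sox10, Foxd3, Erbb3, Cdh19 and Gfra3) were called higher and S100b lower, against 18.7% and 24% of all genes. With limma-voom, and with batch B alone (6 of the 10 tested), 3 were called higher there: Sox10, Erbb3 and Gfra3. Between the batches within Sox2-positive cells, 9 (all but Sox8) were called lower in batch B and 0 higher, against 5.48% and 4.95% of all genes. In batch A edgeR had 1 gene, S100b, lower at an unadjusted p under 0.05, and DESeq2 also called it lower. For higher levels in batch B the count was 0 by DESeq2, by limma-voom and at an unadjusted p too. Since these contrasts chose the genes, the counts describe the choice, and nothing is read from them. Sox8, Foxd3, Cdh19 and Gpr37l1 reached the filter's level of 2.07 CPM in fewer than 4 libraries outside batch A Sox2-positive cells, so these 4 passed through the group in which they were high.

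The population by batch interaction compares the signed log2 difference of Sox2-positive over Sox2-negative cells between the batches. A larger deficit in batch B Sox2-positive cells, as for S100b, therefore also counts as lower. By edgeR the interaction was called lower in batch B for 6 of the 10 genes and higher for 0, against 4.24% and 2.72% of all genes tested. The 6 genes were Sox8, Erbb3, Ngfr, Fabp7, Gfra3 and S100b. Higher calls were also 0 by DESeq2, by limma-voom and at an unadjusted p under 0.05. These counts too rest on the levels that chose the genes, and nothing is read from them. By limma-voom 6 genes were also called lower in the interaction, without Sox8 and Gfra3 but with Foxd3 and Gpr37l1. DESeq2 called 7, the 6 of edgeR and Gpr37l1. By edgeR Gfra3 was not called without the batch B Sox2-negative library numbered 4. Sox10, Foxd3, Cdh19 and Gpr37l1 had no count in any batch B Sox2-negative library, and no fitted value of theirs is given. Without the batch B libraries numbered 1 and 2, an alternative chosen after seeing the data, Foxd3 and Cdh19 were no longer called higher in batch B, and Sox8 and Erbb3 were no longer called in the interaction. Within Sox2-negative cells, edgeR called 0 of the 10 genes higher and 0 lower between the batches, against 6.07% and 5.22% of all genes. At an unadjusted p under 0.05 it called 3 higher and 1 lower, limma-voom called 0 after adjustment, and DESeq2 called 1, Erbb3, which averaged 3.08 CPM in batch B and 1.07 CPM in batch A.

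Among themselves the 10 genes were not equally abundant, and the order was read per kilobase of annotated exon. In batch A Sox2-positive libraries Ngfr was first, at 90.5 ± 5.35 CPM per kilobase (SD, n = 6). Gfra3 at 69.0 ± 11.7, Sox10 at 65.6 ± 11.6 and Fabp7 at 60 ± 8 CPM per kilobase followed and lay within their spread of each other. S100b at 15.5 ± 4.23, Erbb3 at 12.4 ± 2.79, Cdh19 at 8.78 ± 2.61, Gpr37l1 at 5.20 ± 2.46, Foxd3 at 4.04 ± 1.34 and Sox8 at 1.74 ± 1.93 CPM per kilobase came next, each overlapping with its neighbour within 1 SD. In batch B Sox2-positive libraries Ngfr, at 8.84 ± 2.65 CPM per kilobase (SD, n = 7), and Gfra3, at 8.20 ± 1.73, were highest and within their spread of each other. Fabp7 at 3.75 ± 1.35, Erbb3 at 3.08 ± 0.891 and Sox10 at 2.78 ± 1.59 CPM per kilobase followed, with no order beyond their spread.

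Which genes made up the summed level differed between the populations. Ngfr and S100b together gave between 94.5% and 97.7% of the sum in batch A Sox2-negative libraries and between 75.4% and 92.0% in those of batch B. In Sox2-positive libraries the same 2 genes gave between 34.8% and 42.2% in batch A and between 24.2% and 51.1% in batch B. Sox10 gave between 16.9% and 24.4% of the sum in batch A and between 3.88% and 17.3% in batch B Sox2-positive libraries, and at most 1.05% in any Sox2-negative library. Batch B Sox2-positive libraries drew 74.2% to 86.4% of the sum from Ngfr, Erbb3 and Gfra3. Of the 10 genes, 9 or 10 exceeded 3 counts in each batch A Sox2-positive library, 6 to 8 in each batch B Sox2-positive library, 5 in each batch B and 2 to 4 in each batch A Sox2-negative library, at depths that differ between groups.

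**Figure D2:**
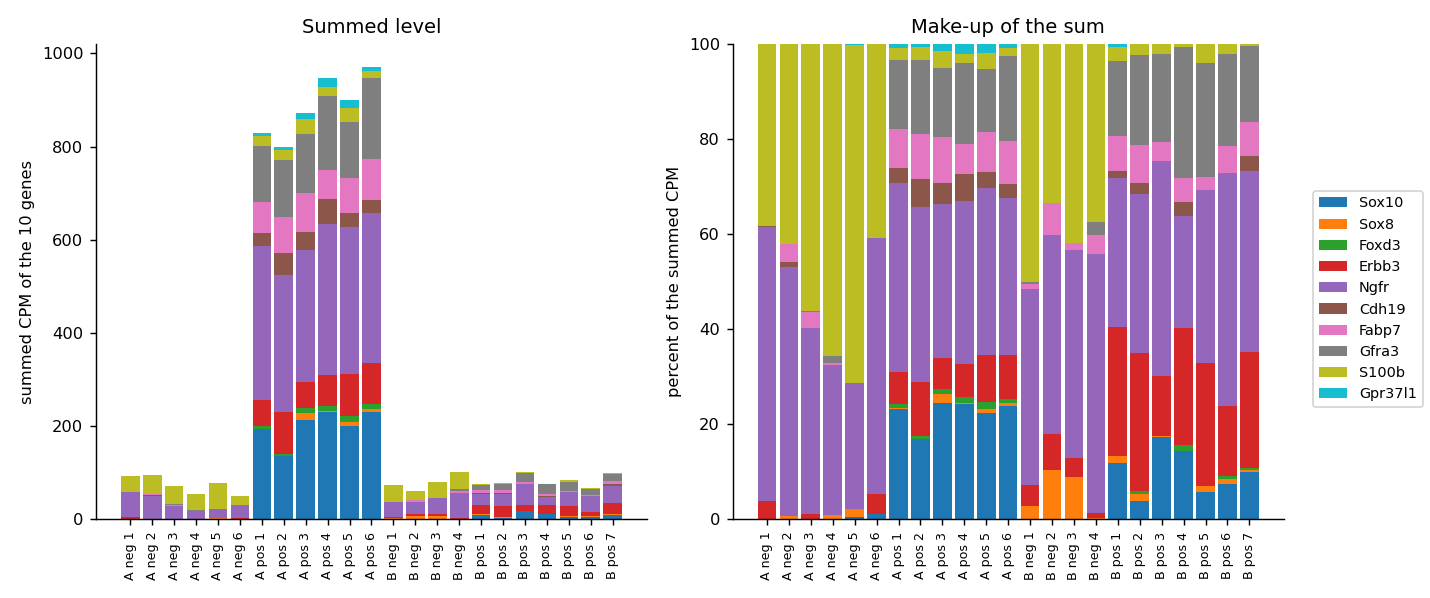
Summed CPM of the 10 genes in each of the 23 libraries (left, bars from 0) and the percent that each gene gives to that sum (right), with colors for genes and one bar per library. The sum is between 798.4 and 971.8 CPM in batch A Sox2-positive libraries and at most 102.1 CPM elsewhere, and Ngfr and S100b fill most of the bar in Sox2-negative libraries.

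Spread between libraries also differed by gene. In batch A Sox2-positive libraries the coefficient of variation was 5.92% for Ngfr, 13.3% for Fabp7, 16.9% for Gfra3 and 17.6% for Sox10, against 111% for Sox8. In batch B Sox2-positive libraries it was 21.0% for Gfra3, 28.9% for Erbb3 and 30% for Ngfr, against 57.1% for Sox10. The batch B libraries numbered 1 and 2 had summed levels of 76.2 and 77.9 CPM among Sox2-positive libraries, inside the range of the others, and of 74.0 and 60.6 CPM among Sox2-negative libraries, below the others at 79.6 and 102.1 CPM.

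The 10 genes were chosen with the difference between the batches known. Among the Sox2-positive libraries, the gap between the batches ranged from 4.02-fold for Erbb3 to 128.7-fold for Gpr37l1, leaving out Sox8, whose groups overlapped. It was 8.41-fold for Gfra3, 10.2-fold for Ngfr, 13.7-fold for S100b, 16.01-fold for Fabp7 and 23.6-fold for Sox10, and over 30-fold for Foxd3 and Cdh19. Schwann genes outside the 10 varied more widely. Mbp, myelin basic protein, differed 15.8-fold, Mal, a proteolipid of myelin membranes, 16.2-fold, and Dhh, the hedgehog ligand that Schwann cells secrete, 39.0-fold. Smaller gaps were those of Cdh2 (3.535-fold), Cnp (2.81-fold), Itga4 (2.14-fold), Nab2 (1.855-fold) and Ncam1 (1.78-fold), and the means of Sox2 and Nab1 were 2.26-fold and 1.59-fold higher in batch B. The plot of Sox2-positive libraries sets these genes side by side.

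Further genes of the same programme were counted over 3 lists that hold none of the 10 genes. They comprise 18 genes of neural crest specification, 26 genes of precursor, immature and promyelinating Schwann cells, and 25 ligands, partners and relatives of the receptors above. Of these 69 genes, 60 passed the filter. Nrg2, Nrg3, Erbb4, Gdnf, Pspn, Pax7, Zic1 and Pou3f2 were among those that did not. The lists were drawn up with earlier results of these data known, and their calls are given beside the shares of all genes above.

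In batch A, 20 of the 25 Schwann genes tested were called higher in Sox2-positive cells and 5 lower (edgeR quasi-likelihood test), against 23.1% and 26.4% of all genes. Sox2, whose reporter defined the sort, is on this list and among the 20, so its call follows from the sort. The median log2 fold change, with Sox2 included, was 3.13 against -0.07 over all genes. Dhh rose from a mean of 0.216 CPM in Sox2-negative to 32.2 ± 7.10 CPM (SD, n = 6) in Sox2-positive libraries (log2 fold change 7.14, with SE 1.04 and an edgeR adjusted p of 3.02e-06). Mal was at least 77.5-fold higher, with no count in any Sox2-negative library. The adhesion genes among the 5 went the other way: Ncam1, Cdh2 and the integrin subunit Itga4 had log2 fold changes of -2.34, -1.70 and -3.21 (edgeR adjusted p 5.51e-13, 5.75e-07 and 4.22e-06). The other two were Nab1 and Nab2, co-factors of the Egr proteins.

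In batch B, 10 of the 25 Schwann genes, again with Sox2 among them, were called higher and 8 lower, against 18.7% and 24% of all genes. The median log2 fold change was 0.04 against -0.06 over all genes. Mal was again higher in Sox2-positive cells, at least 7.56-fold. Gfap, an intermediate filament of glia, also rose (log2 fold change 4.10, SE 1.12, edgeR adjusted p 0.00453), to a mean of 1.68 CPM. Pmp22, a peripheral myelin protein that many other cells also make, differed by 1.91 (batch A) and by -2.33 (batch B) on the log2 scale (edgeR adjusted p 5.53e-12 and 2.25e-13).

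Genes of neural crest specification were called in both directions. In batch A, 4 of 16 were called higher and 7 lower (median log2 fold change -0.51), against 23.1% and 26.4% of all genes. In batch B, 5 were called higher and 10 lower (median -2.09), against 18.7% and 24% of all genes. The higher calls in batch A were near the share of all genes, and nothing is read from that count. Higher in both batches were Ednrb, the endothelin receptor of crest derivatives (3.00 and 1.73, edgeR adjusted p 5.17e-09 and 0.000207), Snai2 (2.52 and 2.59), Id3 (0.66 and 0.55) and Sox9 (1.98 and 1.58), the last a gene also made by dental epithelium. The fifth gene called higher in batch B was Tfap2b. The genes that fell most are also well known in dental mesenchyme, which descends from the crest: the log2 fold changes were -7.38 and -9.91 for Msx1 and -6.68 and -9.61 for Hand2 (edgeR adjusted p at most 4.71e-12 for each). Twist1 averaged 24.9 CPM (batch A) and 46.9 CPM (batch B) in Sox2-negative libraries and had no count in any Sox2-positive library, at least 34.8-fold and 35.7-fold lower. Col1a1, Pdgfra, Prrx1 and 3 other mesenchymal markers moved with them, at 9984 to 12810 CPM in sum in Sox2-negative and 602.5 to 1779 CPM in Sox2-positive libraries, and their part in these results was not tested.

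Of 19 ligands, partners and related receptors tested, 7 were called higher and 5 lower in Sox2-positive cells of batch A, against 23.1% and 26.4% of all genes. In batch B, 4 were called higher and 7 lower, against 18.7% and 24% of all genes. Some of these counts were near the shares of all genes, and nothing is read from them. In Sox2-positive libraries Erbb2, the partner that Erbb3 needs, averaged 82.7 ± 15.1 CPM (batch A; SD, n = 6) and 82.6 ± 18.1 CPM (batch B; SD, n = 7). It was higher there than in Sox2-negative cells (log2 fold changes 1.41 and 0.94, edgeR adjusted p 2.25e-05 and 0.00476). Nrg1, the neuregulin ligand, was low everywhere, at a mean of 7.93 CPM or less in each group, and was not called between the populations (edgeR adjusted p 0.431 and 0.171). Erbb2 is also a receptor of epithelial cells.

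The genes around Gfra3 went apart. Its ligand Artn rose in batch A from 0.213 to 8.99 CPM (log2 fold change 5.30, SE 0.99, edgeR adjusted p 8.07e-05) and was not called in batch B, at 1.53 and 1.60 CPM (edgeR adjusted p 0.961). Ret, the signalling chain that Gfra3 needs, had no count in any batch A and 1 count in all batch B Sox2-positive libraries. Ret in Sox2-negative libraries averaged 11.3 ± 12.1 CPM (SD, n = 6) in batch A, at least 15.8-fold higher, and in batch B 8.97 ± 1.98 CPM (SD, n = 4) (edgeR adjusted p 2.12e-06 and 6.25e-06). Gfra3 and Ret were therefore high in opposite populations. Gfra1 and Gfra2, the related co-receptors, were lower in Sox2-positive cells of batch B (log2 fold changes -2.44 and -4.18, edgeR adjusted p 0.000138 and 1.89e-07).

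Around Ngfr, the neurotrophin receptor Ntrk2 (TrkB) averaged in Sox2-positive libraries 154.3 ± 32.9 CPM (batch A; SD, n = 6) and 235.7 ± 27.9 CPM (batch B; SD, n = 7), against 2.15 and 9.19 CPM in Sox2-negative ones. Its log2 fold changes were 6.11 and 4.68 (edgeR adjusted p 5.32e-12 and 1.72e-09). Ntf5, which encodes a ligand of both receptors, rose by 4.56 and 4.84 on the same scale (edgeR adjusted p 2.71e-06 and 1.25e-05). Ntrk2 and Ntf5 were thus high in the Sox2-positive libraries of both batches, whereas Ngfr was high in those of batch A.

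**Figure D3:**
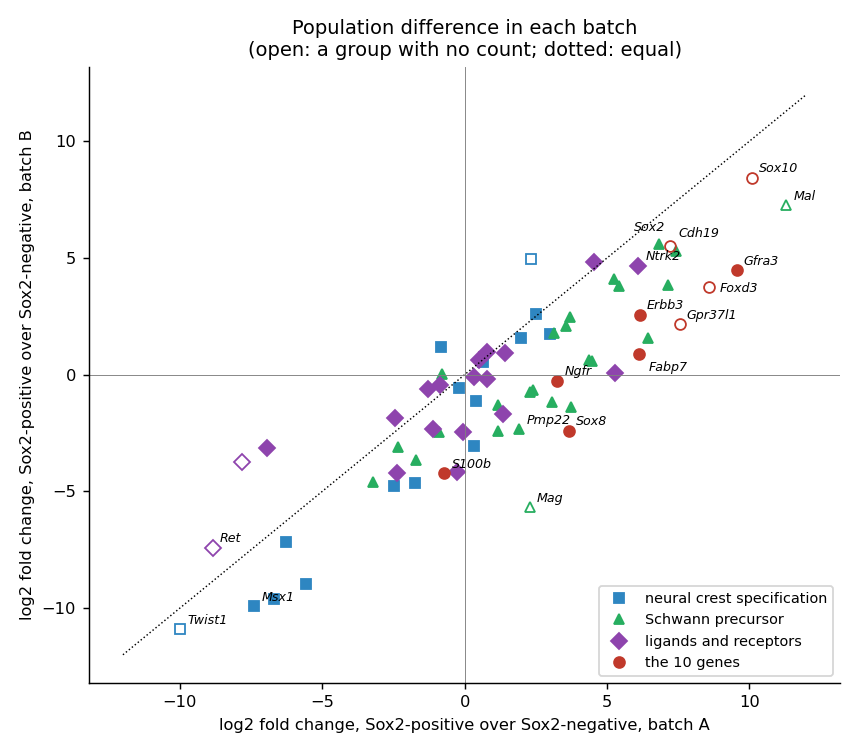
Log2 fold change of Sox2-positive over Sox2-negative cells in batch A (horizontal) and batch B (vertical) for the 10 genes (circles) and the 60 listed genes tested, with the dotted line at equal values; open symbols are genes with no count in 1 or more groups, whose position depends on the prior count of the fit. All 10 genes, which were chosen from these levels, lie below the dotted line. Ntrk2 and Sox2 lie nearer to it than Fabp7 or Gfra3, and so do Sox10 and Cdh19, drawn as open symbols.

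The interaction tested whether these differences changed between the batches. By edgeR it was called lower in batch B for 23 of the 60 listed genes, against 4.24% of all genes tested. They were 13 of 25 Schwann genes, 7 of 16 neural crest genes and 3 of 19 ligands and receptors. Without the batch B libraries numbered 1 and 2 the number was 11. The difference is signed, so lower does not always mean smaller. For Artn the excess in Sox2-positive cells shrank, from 5.30 (batch A) to 0.06 (batch B). For Msx1 (-7.38 and -9.91) and Zeb2 (-1.74 and -4.64) the deficit there was larger in batch B. For 0 of the 60 was the signed difference higher in batch B by edgeR, DESeq2 or limma-voom, and 2 had an unadjusted p under 0.05 in that direction. Prx, a protein of the myelin sheath, had an interaction of -5.12 (SE 1.06, edgeR adjusted p 0.00259), Artn -5.23 and Gfra2 -3.89 (edgeR adjusted p 0.00942 and 0.000358). For Erbb2 (edgeR adjusted p 0.495) and Sox2 (0.586) the interaction did not pass.

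Within Sox2-positive cells, 20 of 25 Schwann genes were lower in batch B and 0 higher (edgeR quasi-likelihood test), against 5.48% and 4.95% of all genes. Over all 60 listed genes 2 were higher by edgeR, 2 by DESeq2, 5 by limma-voom and 4 at an unadjusted p under 0.05. The median log2 fold change of the Schwann genes was -3.81, or -3.09 with Mag, which had no count in batch B Sox2-positive libraries, set at its bound of at least 7.60-fold, against 0.00 over all genes. Dhh (-5.20), Pou3f1 (-4.91) and Egr2 (-5.01) were among them (edgeR adjusted p at most 0.00193), the last 2 being transcription factors of the step into myelination. Of 16 neural crest genes 7 were lower and 2, Msx2 (0.71) and Sox9 (0.56), higher (edgeR adjusted p 2e-04 and 0.0054). Ednrb differed by -3.43, Ets1 by -3.90 and Zeb2 by -3.31 (edgeR adjusted p at most 7.45e-08). Of 19 ligands and receptors 5 were lower, among them Nrg1 (-4.09, edgeR adjusted p 0.0386), Artn (-2.46) and Gfra1 (-2.51). Erbb2 differed by 0.00 (SE 0.22, edgeR adjusted p 1), and Sox2, at 7.345 ± 4.46 CPM (batch A; SD, n = 6) and 16.6 ± 2.91 CPM (batch B; SD, n = 7), by 1.17 (SE 0.60, edgeR adjusted p 0.259).

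Within Sox2-negative cells fewer of these genes were called between the batches than within Sox2-positive cells. By edgeR 5 of the 60 listed genes were higher and 5 lower in batch B, against 6.07% and 5.22% of all genes tested. Ednrb (log2 fold change -2.16) was lower and Pmp22 (1.15) higher (edgeR adjusted p 0.000137 and 2.67e-06). Erythroid markers differed between these groups, at 555.4 to 724.4 CPM in sum in batch A against 30420 to 33740 CPM in batch B, and their part in these results was not tested.

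Genes with the group pattern most like that of Sox10 were ranked among the 17189 other genes tested, by the root mean square difference of their centred group means of log2 CPM over the 4 groups. Among the nearest were Mal (0.64) and Gfra3 (0.67). Arc, an immediate early gene, and Plekhb1 stood at 0.85 and 0.99. Farther off were Gm28661, Rasgef1c, Gal3st1, an enzyme of sulfatide synthesis in myelin, Gm43519 and Gm28437, at 1.21 to 1.29. Gm28661 and Gm28437 are uncertain neighbours, since they ranged from 0 to 963.9 and from 92.2 to 957.9 CPM within batch A Sox2-positive libraries. Of the 10 genes themselves, Cdh19 ranked 13, Fabp7 22, Erbb3 26, Foxd3 98, Gpr37l1 135 and Ngfr 551, while Sox8 ranked 5456 and S100b 15037. With 4 group means the measure describes likeness in these groups and nothing beyond them.

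Markers of other cell types that could carry part of these genes were read in the same libraries. Mbp, a Schwann marker outside the 10 genes, lay between 209.3 and 335.7 CPM in batch A Sox2-positive libraries, between 8.12 and 29.3 CPM in those of batch B, and at most at 27.1 CPM in Sox2-negative libraries. Melanocytes also descend from the crest and share Sox10, Ednrb and Erbb3 with it. Their 7 markers summed in Sox2-positive libraries to 47.0 to 79.3 CPM (batch A) and 44.2 to 96.7 CPM (batch B), with Mlana at 0 in all 23 libraries and Tyrp1 at 0 in all of batch B. The melanocyte sums of the batches overlapped, and the part of melanocytes in the levels of the 10 genes was not tested.

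The 8 neuronal markers summed in Sox2-positive libraries to between 354.7 and 470.5 CPM (batch A) and 309.3 and 397.5 CPM (batch B), mostly from Isl1 and Tubb3, which other cells also make. Prph was at 0 in both groups, Snap25 at 0 in batch A and Elavl3 at 0 in batch B Sox2-positive libraries. The summed mesenchymal markers were also higher in batch A within Sox2-positive cells, at 1220 to 1779 CPM against 602.5 to 684.4 CPM in batch B. Col1a1 (428 against 36.6 CPM) and Col3a1 (390.4 against 7.11 CPM) carried that difference, and Prrx1 averaged 2.12 and 0.382 CPM. Col1a2 was nearly equal (570.1 against 552.9 CPM), and Pdgfra (29.6 against 42.9 CPM) and Dcn (4.62 against 7.51 CPM) were higher in batch B. The part of these cells in the batch difference of the 10 genes was not tested. Endothelial markers summed to at most 5.60 CPM, leukocyte markers to at most 14.6 CPM and erythroid markers to at most 8.17 CPM in Sox2-positive libraries.

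**Figure D4:**
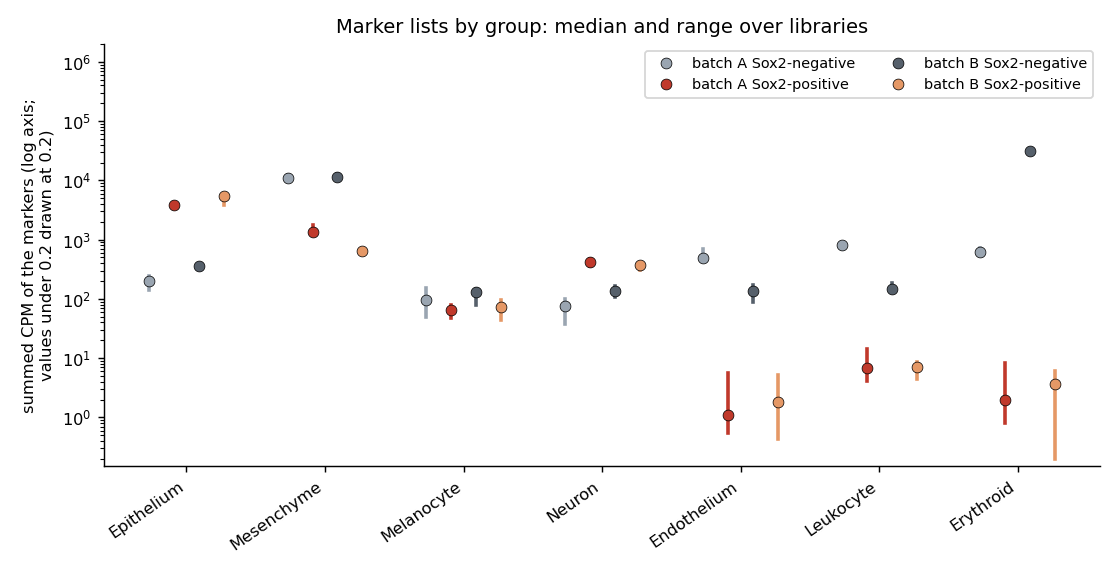
Summed CPM of marker lists in the 4 groups, on a log axis with values under 0.2 drawn at 0.2; points are medians and lines ranges over libraries. Epithelial sums are between 3602 and 5782 CPM in Sox2-positive and at most 383.9 CPM in Sox2-negative libraries, and melanocyte and neuronal sums overlap between the Sox2-positive groups.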

How the data were processed

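RNA was measured in 23 libraries of sorted cells, 4 groups taken from the labels. The authors deposited expected counts, estimated counts per gene with no scaling to a common depth, in a table of 54347 genes. The submitters' processing notes name FastQC, Trimmomatic, Salmon and the build mm10, without versions, and the annotation, strand setting and order of steps are not given in the sources used here. Salmon estimates divide reads between similar transcripts, so counts of close copies and of overlapping genes depend on that division.

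Of the gene identifiers 54094 (99.5%) matched a symbol with the version dropped. Values were rounded to whole numbers and tested with edgeR 4.0.16 in R 4.3.3: TMM scaling, the filterByExpr filter with a minimum count of 10 (17190 genes kept), 4 group means over all 23 libraries, two-sided quasi-likelihood F tests, and Benjamini-Hochberg adjustment over all genes tested with a threshold of 0.05. The contrasts were the population difference in each batch, their interaction, and the batch difference in each population. Each standard error is the size of the log2 fold change over the root of its F. Totals behind CPM were TMM-scaled. Where a group had no count, folds were taken against the highest per-library floor of 3 counts in that group. Where it had 20 counts or fewer, folds are ratios of summed counts with an exact 95% binomial interval, which covers counting error only: without molecular identifiers, copies from PCR are counted as reads. All pairs of libraries within a group differed by more than sampling noise, with a chi-square of at least 5.19 for each degree of freedom.

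The 10 genes, the 3 lists and the marker lists were chosen with earlier results of these data known. Named listed genes are Erbb2, Nrg1, Ret, Artn and Sox2, and in each list and contrast the called genes with the largest changes, up to 4 in each direction, if their mean reached 1 CPM. Some genes that this rule takes are not reported here. Nab1, Pmp22, Gfra1 in batch B, Mbp and other genes outside this rule were chosen after their values were seen or are members of a marker list. The promoter elements were chosen after a first search for SOX letters. The labels do not say that same-numbered libraries are pairs, and the counts were used to check it: their deviations correlated between -0.0212 and 0.0123 in batch A and between 0.00309 and 0.0443 in batch B, so no block was used. Alternatives were DESeq2 1.42.0, limma-voom (limma 3.58.1) with sample quality weights, other scalings and filters, each batch or population alone, the replicate block, and fits without each library. The edgeR fit was tested on simulated data. ATAC-seq named in the series' design was not analysed here.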

Additional observations from a re-analysis of the deposited data

Results flagged for a closer look

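Cdh19 read 1.04 CPM in the batch A Sox2-negative library numbered 2, against 0 to 0.252 CPM in the other 5 libraries of the group, so 1 library lay far from the rest. Gfra3 read 2.68 CPM in the batch B Sox2-negative library numbered 4, against 0 to 0.348 CPM in the other 3. These were 2 of 31 groups of the 10 genes examined in this way. For normally distributed values chance alone sets a library apart in about 1 in 20 groups. Counts this close to 0 are not so distributed, and their rate was not computed. The signed log2 difference between the populations was lower in batch B than in batch A, by the test of the interaction itself (edgeR), for 13 Schwann genes, 7 neural crest specification genes and 3 ligands and receptors outside the 10 genes. Some of these, such as Msx1, had a larger deficit in batch B Sox2-positive cells and not a smaller excess.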

How the results depend on the processing

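Log2 fold changes of the 10 genes were recomputed 1578 times over the alternatives and contrasts. None reversed its sign among called values, 1522 moved by less than the spread between libraries and 56 by more, of which 29 came from leaving out 1 library and 19 from limma-voom. DESeq2, RLE size factors and a filter at a mean of 10 counts also called S100b lower in batch A, while limma-voom and the replicate block did not call Sox8 there. Among the 60 listed genes outside the 10, 23 had a lower interaction in batch B, 15 with the replicate block and 11 without the batch B libraries numbered 1 and 2, an alternative chosen after seeing the data. Within Sox2-positive cells 2 were called higher in batch B, and 5 by limma-voom and 5 with each population alone. Within Sox2-negative cells 5 were called lower, against 10 by DESeq2 and 3 by limma-voom. The causes were not tested. With each library left out in turn, the calls higher and lower ranged over 29 to 31 and 15 to 17 in batch A, 17 to 19 and 23 to 25 in batch B, 0 and 19 to 24 for the interaction, 2 and 29 to 33 within Sox2-positive cells, and 5 to 6 and 4 to 7 within Sox2-negative cells. Among the 10 genes the replicate block left 3 interaction calls of 6 (Ngfr, Fabp7 and S100b) and 4 of 5 higher calls in batch B, without Foxd3. In the population differences and the interaction it moved no other count of these genes or of the listed genes by more than 1.5 times. For the batch differences the block joined same-numbered libraries of different batches, which are different mice, so it does not check them. Total-count scaling moved the median of all genes by 0.11 in the batch B population difference and by -0.16 between batches in Sox2-negative cells. The split of all genes called higher and lower there was 1043 and 897, but 662 and 1381 with total-count scaling and 886 and 1015 with RLE size factors, and in Sox2-positive cells it was 851 and 942, but 666 and 1213 with total-count scaling. In batch B Sox2-positive libraries depth limits Sox8, Foxd3, Cdh19 and Gpr37l1, whose means lie under the highest floor of 1.31 CPM.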
